A study of Mus musculus with 18 samples.

Results

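The Nr4a family of orphan nuclear receptors was followed in the hippocampus of C57BL/6J mice, all adolescent males. Its 3 genes, Nr4a1, Nr4a2 and Nr4a3, were matched by symbol among the 57180 genes of the count table, and all 3 were among the 16738 genes with enough counts to be tested. RNA was taken from 18 wild-type mice (genotype WT), 1 library per mouse and 6 mice per group. Control mice were untreated. CSDS mice went through chronic social defeat stress, in which an intruder mouse is placed with an aggressive resident. The exercised group went through the same CSDS and also received aerobic training, which began before the defeat period and ran through it. Hippocampi were dissected after behavioural testing. The sources used here do not give the ages in days, the length of the defeat period or the interval between the last test, defeat or training session and dissection. Mice that trained without CSDS were not analysed here.

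Nr4a1 (NUR77), Nr4a2 (NURR1) and Nr4a3 (NOR1) are transcription factors with the fold of nuclear receptors, but their ligand pocket is closed and they act largely according to how much protein is present. They bind a short element, the NBRE, as single molecules, and Nr4a1 and Nr4a2 can also bind DNA together with retinoid X receptors. In neurons their genes are immediate early genes: calcium and cyclic AMP signals, through CREB and MEF2 proteins, switch them on within minutes of activity and without new protein synthesis. In the hippocampus the family is known for a part in long-term memory, and Nr4a2 is also known as a factor that dopamine neurons of the midbrain need.

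In GRCm38, with the GENCODE M21 annotation, Nr4a1 (ENSMUSG00000023034) lies at chr15:101254269-101274795 on the plus strand. Nr4a2 (ENSMUSG00000026826) lies at chr2:57106830-57124003 on the minus strand, and Nr4a3 (ENSMUSG00000028341) at chr4:48045153-48086447 on the plus strand. No other annotated gene overlaps any of the 3, and every member count in the table was a whole number. Their promoters are shown because all 3 genes are induced through CREB, whose half-site is TGACG, which reads CGTCA on the other strand. They were also chosen because each window of 250 bases before the RefSeq start holds the same number of these half-sites. The sequences are from RefSeq (GRCm38.p6), 5′ to 3′ on the strand of the gene, and capitals mark the half-sites.
Nr4a1, chr15:101266596-101266845: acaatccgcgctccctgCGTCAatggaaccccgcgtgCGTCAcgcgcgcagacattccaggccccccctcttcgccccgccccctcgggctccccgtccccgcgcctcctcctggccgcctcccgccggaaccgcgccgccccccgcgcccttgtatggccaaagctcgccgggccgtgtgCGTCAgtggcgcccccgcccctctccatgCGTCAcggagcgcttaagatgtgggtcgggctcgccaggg
Nr4a2, chr2:57124004-57124253: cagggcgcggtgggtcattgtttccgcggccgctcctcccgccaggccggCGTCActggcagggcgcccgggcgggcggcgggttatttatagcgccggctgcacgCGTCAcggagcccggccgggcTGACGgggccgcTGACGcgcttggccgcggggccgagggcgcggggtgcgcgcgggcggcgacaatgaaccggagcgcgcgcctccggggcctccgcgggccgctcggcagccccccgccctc
Nr4a3, chr4:48045055-48045164: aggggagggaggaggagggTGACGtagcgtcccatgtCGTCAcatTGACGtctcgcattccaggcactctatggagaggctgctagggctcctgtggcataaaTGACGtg
For Nr4a1 and Nr4a2 these are the 250 bases before the RefSeq start; that of Nr4a1 lies inside the GENCODE gene, downstream of its first annotated start. For Nr4a3 the first 110 of the 250 bases are shown, of which the last 12 lie in an annotated exon and hold the last of its half-sites.

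Each of the 3 windows of 250 bases held 4 CREB half-sites on either strand. In Nr4a3 the last of the 4 lay within an annotated exon of the gene, downstream of its GENCODE start. Of all 32851 promoter windows of that length, whatever their GC content, 17.8% held at least 1 and 0.137% held at least 4. The 3 windows are shown partly because of their count of half-sites, so these shares are no test of it. Windows of like GC content were not compared separately. All 4 half-sites of Nr4a1 lay within a longer site of the letters TGCGTCA, which reads TGACGCA on the other strand, a motif chosen after the sequence was seen. No other window held 3 or more of these longer sites, and the windows of Nr4a2 and Nr4a3 held 0. The full palindromic element TGACGTCA, which contains the half-site on both strands, was in 0 of the 3 windows and in 1.55% of all windows. The NBRE, AAAGGTCA, was in 0 of the 3 and in 1.34% of all. The GC content of the windows was 74.4% for Nr4a1, 80% for Nr4a2 and 63.6% for Nr4a3. These are matches of letters, not measured binding.

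Total counts lay between 18911080 and 24136591 per library. Levels are given in CPM, a gene's count as a share of the library's total after TMM scaling. The hippocampal label was checked against defining genes, and 1 library stood apart from the other 17. In control replicate 2, Prox1 and C1ql2, markers of dentate granule cells, were at 10.4 and 0.408 CPM, against 83.5 and 40.7 CPM or more elsewhere. The neocortical markers Lamp5 and Tbr1 were at 259 and 164 CPM there, against at most 42.8 and 58.9 CPM elsewhere. Results that rest on this library are given with and without it, except the fold changes of single genes outside the family. Thalamic markers varied too: the sum of 12 was 1216 CPM in exercised replicate 6, 806 CPM in control replicate 3, and 142 to 476 CPM in the other 16 libraries. The sum of 10 choroid plexus markers, genes of the epithelium that lines the ventricles beside the hippocampus, varied more, from 20.5 CPM in control replicate 2 to 8655 CPM in CSDS replicate 5. Its group ranges were 2661 to 5583 CPM in the other 5 controls, 101 to 8655 in CSDS mice and 68.9 to 6728 in exercised mice. In each of the 3 comparisons 0 of 10 choroid plexus markers passed at an unadjusted p under 0.05 (edgeR). All 10 had negative log2 fold changes in each, but they mark the same epithelium and are not independent of each other. The medians were -0.28 for CSDS against control, -0.36 for exercised against CSDS and -0.66 for exercised against control (edgeR). Without control replicate 2 they were -0.54, -0.36 and -0.92 (edgeR). In limma voom, with that library included, they were -1.57, -0.6 and -1.98.

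Nr4a1 was the member whose groups lay furthest apart. In the controls its level was lowest at 47.5 CPM, with a median of 63.6 and a highest value of 153 CPM. In the CSDS mice the lowest, median and highest values were 28, 41.9 and 54.9 CPM, and in the exercised mice 23.0, 34.0 and 60.1 CPM. The highest control value was that of control replicate 2. Of the 6 CSDS mice, 4 lay below the lowest control, and of the 6 exercised mice 5 did. All 3 groups overlapped; groups without overlap were found for 0.239% of genes between CSDS mice and controls, 0.89% between the CSDS groups and 0.562% between exercised mice and controls. The means were 77.4 ± 38.2 CPM in controls, 42.9 ± 10.5 in CSDS mice and 36.4 ± 13.1 in exercised mice (SD, n = 6 each), and 62.2 ± 10 CPM over the 5 controls without replicate 2.

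Nr4a2 did not separate the groups. Its lowest, median and highest values were 21.5, 36.4 and 49.8 CPM in controls, 24.4, 42.5 and 53.5 CPM in CSDS mice and 26.4, 35.2 and 56.0 CPM in exercised mice. Each range covered most of the other ranges, and the lowest control was again replicate 2. The means were 36 ± 9.65, 40.7 ± 11.9 and 37.0 ± 10.4 CPM (SD, n = 6 each).

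Nr4a3 also overlapped fully, but its spread differed from group to group. The CSDS mice lay close together, with a lowest value of 73.7, a median of 85.2 and a highest value of 93.8 CPM. Exercised mice ran from 51.2 CPM in replicate 6 through a median of 86.3 to 95.9 CPM. Controls ran from 26.4 CPM in replicate 2 through a median of 84.1 to 105 CPM. The low ends were thus held by single libraries: control replicate 2 with few dentate transcripts, and exercised replicate 6 with the highest thalamic markers. The means were 76.5 ± 28, 84.5 ± 6.61 and 81.2 ± 16.5 CPM (SD, n = 6 each), with 86.5 ± 15.1 CPM over the controls without replicate 2. In whole tissue such as this, fewer cells of a type and less RNA per cell cannot be told apart.

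**Figure D1:**
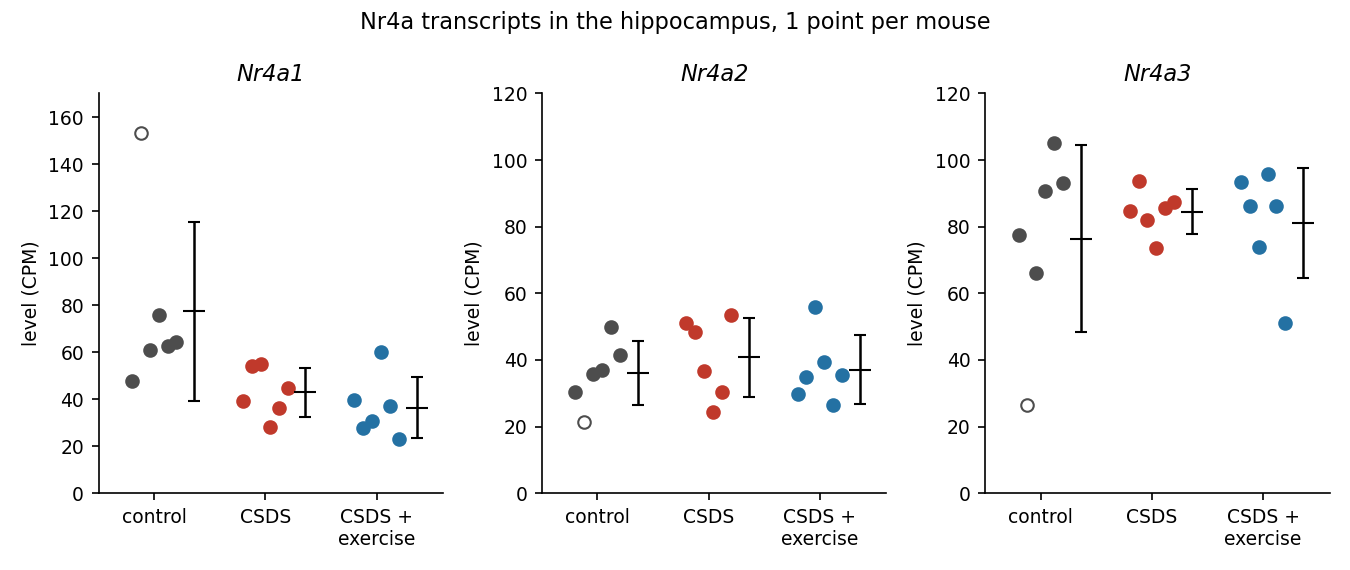
Level of each Nr4a gene in CPM (y axis, linear) by group (x axis), with 1 point per mouse; bars are the mean ± SD of 6 mice and the open circle is control replicate 2. For Nr4a1, 5 of 6 exercised mice lie below the lowest control, while Nr4a2 and Nr4a3 overlap throughout.

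Set against transcript length, Nr4a1 had the highest level of the 3 in the controls. Divided by the length of the longest coding transcript (2553, 3568 and 5720 bases), control levels were 30.3 ± 14.9 CPM per kb for Nr4a1, 13.4 ± 4.90 for Nr4a3 and 10.1 ± 2.71 for Nr4a2 (SD, n = 6 each). The control range of Nr4a1, 18.6 to 60.0 CPM per kb, lay above that of Nr4a3, 4.62 to 18.4, while Nr4a3 and Nr4a2 overlapped. In CSDS mice the order was the same, with means of 16.8 ± 4.11, 14.8 ± 1.16 and 11.4 ± 3.35 CPM per kb, but here Nr4a1 and Nr4a3 overlapped. In exercised mice the means of Nr4a1 and Nr4a3 were 14.3 ± 5.12 and 14.2 ± 2.89 CPM per kb, with Nr4a2 at 10.4 ± 2.91. Among 43 nuclear receptor genes ordered by mean CPM per kb over all 18 libraries, Nr4a1 was at place 5, Nr4a3 at place 8 and Nr4a2 at place 13. Group by group, Nr4a1 was at place 3 in controls (place 5 without control replicate 2) and at place 7 in both CSDS mice and exercised mice. Nr4a3 was at place 9, 9 and 8 and Nr4a2 at place 13, 12 and 12 in controls, CSDS mice and exercised mice; without control replicate 2 they were at places 8 and 12 in controls. Thra, the thyroid hormone receptor alpha gene, led that order.

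The comparison of CSDS mice with controls asks which hippocampal transcripts differ after social defeat. Nr4a1 was lower after CSDS, at an estimated 0.554 times the control level, a log2 fold change of -0.85 ± 0.26 (SE), but it did not pass the adjusted threshold in edgeR's quasi-likelihood test (adjusted p = 0.993 over 16738 genes). Nr4a2 and Nr4a3 had log2 fold changes of 0.18 ± 0.22 and 0.14 ± 0.22 (adjusted p = 0.993 for both). Thus 0 of the 3 members passed at an adjusted p under 0.05, where edgeR called 0 genes in all (0% of genes tested), DESeq2 1 (0.0032% of genes with an adjusted p) and limma voom 0. At an unadjusted p under 0.05, 1 member, Nr4a1, passed; 588 genes did, or 3.51% of all tested, and 281 (1.68%) were on the lower side. Ordered by p, Nr4a1 was at place 39 of 16738. In the fit that left out control replicate 2 its log2 fold change was -0.54 ± 0.21, still at an unadjusted p under 0.05, and that of Nr4a3 became -0.03.

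The comparison of exercised with unexercised CSDS mice asks what training changed under the same stress. None of the 3 members differed beyond the spread between mice in edgeR's test: the log2 fold changes were -0.24 ± 0.26 for Nr4a1, -0.14 ± 0.22 for Nr4a2 and -0.06 ± 0.22 for Nr4a3, with adjusted p of 0.676, 0.773 and 0.912. No member passed at an unadjusted p under 0.05 either, where 2604 genes did (15.6% of all tested). At an adjusted p under 0.05 edgeR called 0 genes (0%), and DESeq2 called 164 (1.35%), none of them a member. Limma voom with quality weights, which called 5567 genes here (33.3%), also called Nr4a2 lower, by 0.45 on the log2 scale (limma voom, log2 fold change -0.45, adjusted p = 0.0485).

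The 3 comparisons share groups, so those with controls both rest on the same 6 control mice. Between exercised CSDS mice and controls, Nr4a1 had the lowest value of the 3 comparisons: its log2 fold change was -1.09 ± 0.27, an estimated 0.471 times the control level, with an adjusted p of 0.175 in edgeR. Nr4a2 and Nr4a3 had log2 fold changes of 0.04 ± 0.22 and 0.09 ± 0.22, with adjusted p of 0.959 and 0.909. So 0 of 3 members passed at an adjusted p under 0.05, where 3 genes passed in all (0.0179% of those tested). At an unadjusted p under 0.05 Nr4a1 alone passed, beside 1874 genes (11.2%), of which 735 (4.39%) were lower in exercised mice. Both other tools called Nr4a1, with log2 fold changes of -1.09 (DESeq2, adjusted p = 0.0183) and -0.85 (limma voom, adjusted p = 0.035), where they called 0.59% and 1.09% of genes. Leaving out control replicate 2, the log2 fold change was -0.77 ± 0.21 (edgeR, adjusted p = 0.228), while Nr4a2 and Nr4a3 went to -0.07 and -0.09.

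**Figure D2:**
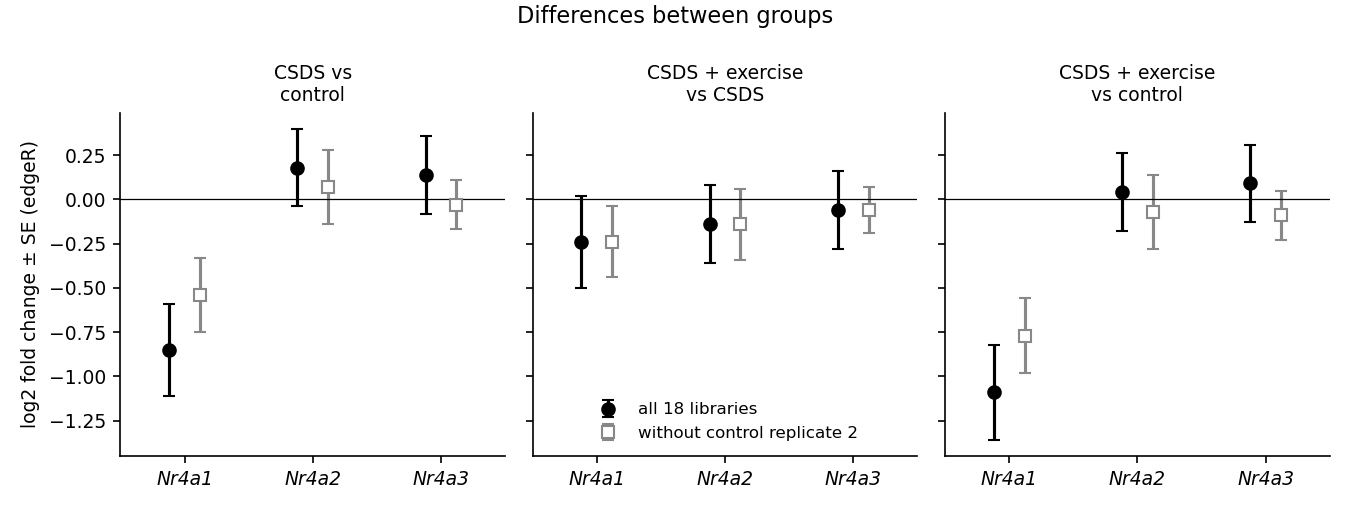
Log2 fold change ± SE from edgeR (y axis) of each Nr4a gene (x axis) in the 3 comparisons, from all 18 libraries (filled circles) and without control replicate 2 (open squares). Nr4a1 is below 0 in both comparisons with controls in both fits, at -0.85 and -1.09 with all libraries and at -0.54 and -0.77 without that library.

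Whether the members differed from each other was tested inside each library, as the difference of their log2 CPM, with an exact two-sided permutation test over 924 regroupings of 6 against 6 mice (smallest possible p 0.00216), adjusted over 9 tests. Relative to Nr4a2, Nr4a1 fell by 0.95 on the log2 scale from controls to CSDS mice (p = 0.00433, adjusted p = 0.026, exact permutation). Relative to Nr4a3 it fell by 1.04 (p = 0.00866, adjusted p = 0.026, exact permutation). Nr4a2 and Nr4a3 did not separate, with a difference of -0.09 (adjusted p = 0.769, exact permutation). From controls to exercised mice Nr4a1 fell by 1.09 relative to Nr4a2 (adjusted p = 0.0438) and by 1.22 relative to Nr4a3 (adjusted p = 0.026), both by exact permutation. Between exercised and unexercised CSDS mice, 0 of 3 pairs passed, also at an unadjusted p under 0.05, with differences of -0.14, -0.18 and -0.04.

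The same differences can be read as ratios within single libraries. The CPM of Nr4a1 was 1.26 to 7.13 times that of Nr4a2 in controls, with a median of 1.63, against 0.767 to 1.5 (median 1.13) in CSDS mice and 0.552 to 1.52 (median 1.06) in exercised mice. The highest ratio, 7.13, was that of control replicate 2, and the other 5 controls lay between 1.26 and 2.05. Without that library Nr4a1 still fell relative to Nr4a2 and Nr4a3 from controls to CSDS mice, by 0.59 and 0.54 (adjusted p = 0.0455 for both, exact permutation). From controls to exercised mice the fall relative to Nr4a3 was then 0.72 (adjusted p = 0.0455, exact permutation), and the difference from Nr4a2 was -0.73 (adjusted p = 0.112, exact permutation) and no longer passed. These calls were near the limit of what 6 mice a group allow: leaving out CSDS replicate 1, 4, 5 or 6 raised both adjusted p-values of the first comparison to between 0.0584 and 0.0828 (exact permutation). Between exercised mice and controls, the difference from Nr4a2 ran from -1.23 to -0.73 over the 12 fits that left out 1 mouse of these groups, and 9 of the 12 no longer passed (adjusted p up to 0.112, exact permutation). For the difference from Nr4a3 the values ran from -1.38 to -0.72, and 4 of 12, those without exercised replicate 1, 2, 3 or 6, no longer passed (adjusted p up to 0.0584, exact permutation). Leaving out a mouse of the CSDS group, which is in neither difference, left both differences at -1.09 and -1.22. In 4 of those 6 fits both adjusted p-values nevertheless rose to 0.0584 (exact permutation), because the adjustment runs over all 9 tests and others of the 9 had changed.

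**Figure D3:**
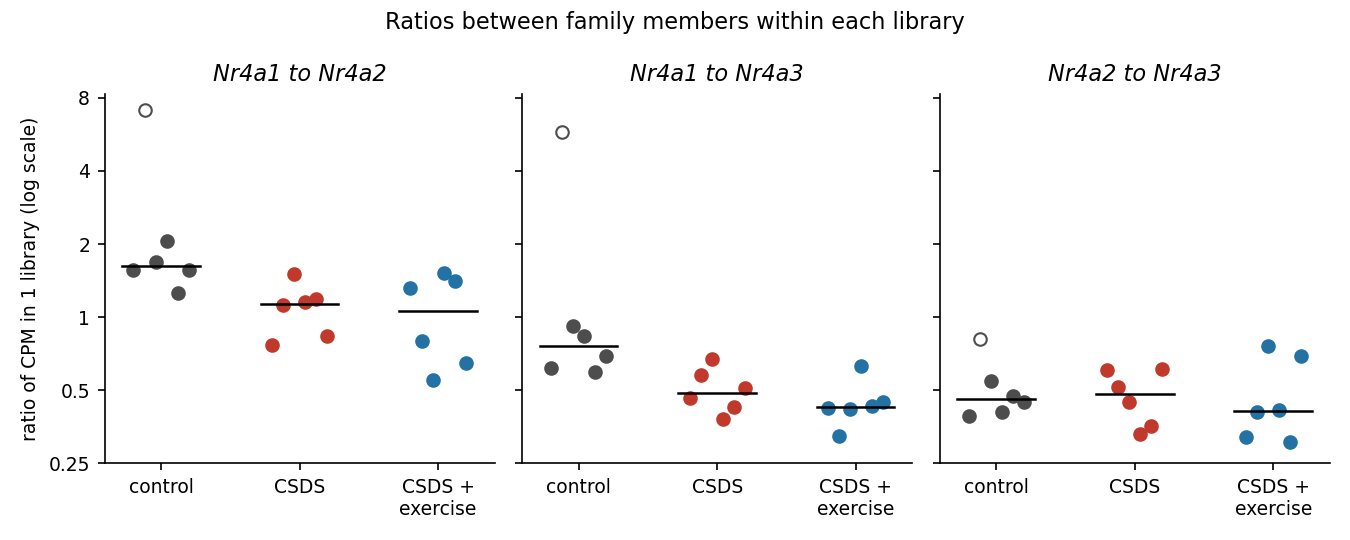
Ratio of the CPM of 2 Nr4a genes within 1 library (y axis, log scale) by group (x axis), with 1 point per mouse; lines are group medians and the open circle is control replicate 2. The median ratio of Nr4a1 to Nr4a2 is 1.63 in controls, 1.13 in CSDS mice and 1.06 in exercised mice, while that of Nr4a2 to Nr4a3 lies between 0.409 and 0.482 in all groups.

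Mice of the same group also differed from each other, so the members were correlated over the 18 libraries after subtracting group means. Over all 18, Nr4a1 and Nr4a3 had a Pearson r of -0.29 (permutation p = 0.318) and a Spearman rho of 0.19 (p = 0.468). Over the other 17 libraries, without control replicate 2, r was 0.64 (permutation p = 0.0133, adjusted over 3 pairs 0.0398) and rho 0.64 (p = 0.00732, adjusted p = 0.022). That library had the highest Nr4a1 and the lowest Nr4a3, and its removal turned the sign. Leaving out also the 2 libraries farthest from the median of Nr4a1, exercised replicates 4 and 6, brought r to 0.43.

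Nr4a2 and Nr4a3 had r = 0.49 over 18 libraries (permutation p = 0.0498, adjusted p = 0.149) and rho = 0.34 (p = 0.167). The relation rested on few libraries: r was 0.15 without the 2 farthest from the median and 0.20 without control replicate 2. For Nr4a1 and Nr4a2, r was -0.10 (permutation p = 0.70) and rho 0.01 (p = 0.975). With that library left out the values for that pair were 0.30 and 0.19, with adjusted permutation p of 0.436 and 0.511.

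The levels were also set beside the marker sums of neighbouring regions and beside each library's trend on GC content, which is the slope of a gene's deviation from its mean on the GC content of its transcripts. This family of 15 relations was chosen after the data were seen, and in every case group means were subtracted. Nr4a3 passed with dentate markers over 18 libraries and with thalamic markers over 17, and not with the other 3 measures. Over 18 libraries it correlated with the summed dentate granule markers at r = 0.88 (permutation p = 0.00073, adjusted p = 0.0109) and rho = 0.72 (adjusted p = 0.0267), with r = 0.72 when the 2 farthest libraries, control replicate 2 and exercised replicate 4, were left out. Leaving out control replicate 2, that relation no longer passed (r = 0.57, adjusted permutation p = 0.231).

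Over the 17 libraries without control replicate 2, Nr4a3 ran against the thalamic sum, with r = -0.94 and rho = -0.90 (permutation p = 0.00012 and 7e-05, adjusted p = 0.0018 and 0.00105). Its level was 51.2 CPM where the thalamic sum was 1216 CPM (exercised replicate 6), 66.0 where it was 806 (control replicate 3), and 77.5 and 74.0 where it was 437 and 476 (control replicate 1 and exercised replicate 3). In the other 13 of these libraries the thalamic sum was 142 to 250 CPM and Nr4a3 lay between 73.7 and 105 CPM. Without exercised replicate 6 and control replicate 3, r was -0.84. With control replicate 2 included, r was -0.29 (adjusted permutation p = 0.399); that library was low in Nr4a3 and had a thalamic sum of 157 CPM. Of the thalamic markers themselves 11 were tested, and 0 were called after adjustment by edgeR, DESeq2 or limma voom in any comparison. At an unadjusted p under 0.05 in edgeR, 3 of 11 were lower in CSDS mice than in controls (1.68% of all genes were). There, 7 of 11 were higher in exercised than in CSDS mice (8.1% of all genes were). DESeq2 had 4 and 7 of 11, and limma voom 2 and 0. In edgeR all 11 had negative log2 fold changes in the first of these comparisons (median -1.08) and positive ones in the second (median 1.17). The limma voom medians were -0.89 and 0.59. Between exercised mice and controls 7 were positive and 4 negative in edgeR. Without control replicate 2, 5 of 11 were lower in CSDS mice than in controls in edgeR (0.968% of all genes were). The group ranges of their sum were 154 to 806, 142 to 250 and 153 to 1216 CPM, and no marker was at 0 in every library of a group. Their part in the levels of Nr4a3 was not tested.

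**Figure D4:**
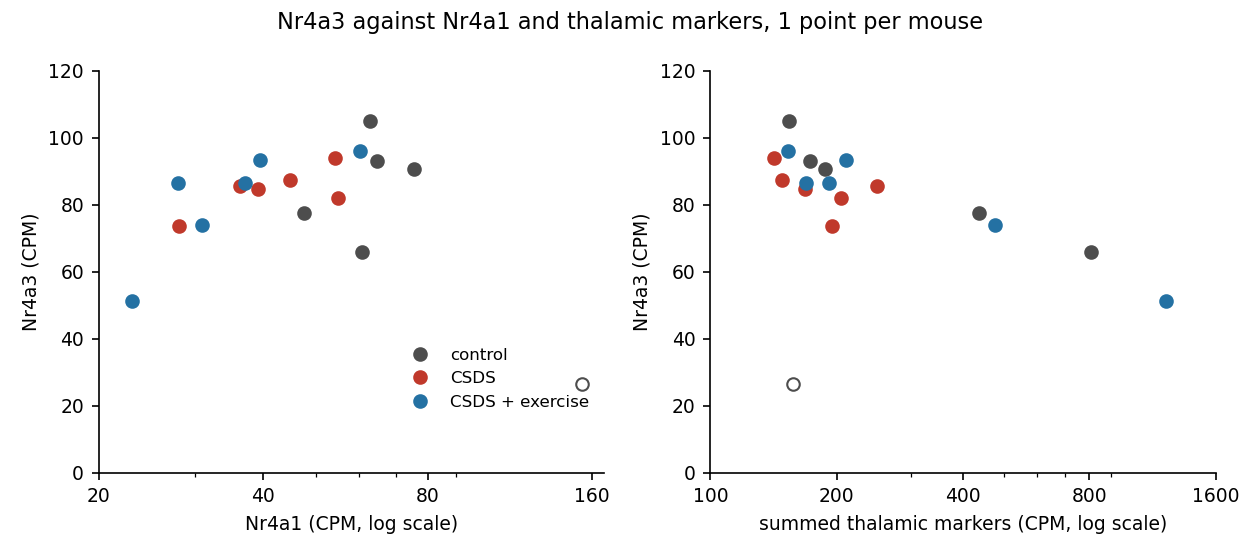
Left, Nr4a3 (y axis, CPM) against Nr4a1 (x axis, CPM, log scale); right, Nr4a3 against the summed level of 12 thalamic markers (x axis, CPM, log scale), with 1 point per mouse, coloured by group, and control replicate 2 as the open circle. Nr4a3 is lowest where thalamic markers are highest, at 51.2 CPM beside 1216 CPM, except in control replicate 2.

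Nr4a1 was set beside the same 5 measures. Over all 18 libraries none passed, by r or by rho: r was -0.65 with the summed choroid plexus markers (adjusted permutation p = 0.0934), 0.62 with the neocortical sum (0.171), -0.57 with the thalamic sum (0.171), 0.48 with the GC slope (0.171) and -0.27 with the dentate sum (0.399). Without control replicate 2, r was -0.45 with the choroid plexus sum (adjusted permutation p = 0.241), -0.57 with the thalamic sum (0.085), 0.66 with the dentate sum (0.0527) and 0.09 with the neocortical sum (0.89). The GC slope was the one that passed, by both r and rho. Over the 17 libraries without control replicate 2 its correlation with the GC slope was r = 0.83 and rho = 0.82 (adjusted permutation p = 0.00262 and 0.00195), and r = 0.73 without the 2 farthest libraries. The median GC slope, in log2 units per 10 points of GC, was 0.02 in controls, 0.19 in CSDS mice and -0.19 in exercised mice, with overlapping ranges. With the trend removed in edgeR, the log2 fold changes of Nr4a1 were -0.93 for CSDS against control, -0.08 for exercised against CSDS and -1.01 for exercised against control. Both comparisons with controls stayed within their SE of the uncorrected values, and that between the CSDS groups was nearer to 0. Nr4a2, whose transcripts have the lowest GC content of the 3 (48.6%, against 56.1% for Nr4a1 and 54.6% for Nr4a3), did not pass with the GC slope (r = 0.22 over 17 libraries, adjusted permutation p = 0.643). It correlated with the summed neocortical markers over those 17 (r = 0.73, rho = 0.70, adjusted permutation p = 0.0117 and 0.0291), with r = 0.58 without the 2 farthest libraries and -0.19 when control replicate 2 was included. The part of these measures in the members' levels was not tested.

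Other genes were ordered by how closely their log2 CPM followed each member over the 18 libraries with group means subtracted, among 13487 named genes with a mean of at least 1 CPM. These correlations describe the libraries and share their depth and tissue content. Nearest to Nr4a1 were Cdipt, Fam234b, Arc, Fosb, Kctd1, Sept5, Actr1b and Itgb3, with r from 0.93 to 0.90. Arc, which encodes a synaptic protein that regulates receptor trafficking, and Fosb, a partner of JUN proteins, are immediate early genes themselves. Over the 17 libraries without control replicate 2, these 8 genes had r of 0.84 to 0.90 and 0 of them were still among the 8 nearest, with places from 10 to 360. Arc was then at place 43 (r = 0.88) and Fosb at place 13 (r = 0.90), and the first place went to Tbc1d22a (r = 0.96), named here after its value was seen. Nearest to Nr4a2 were Tmem132e, Armcx2, Adamts2, Syngr3, Serac1, Fermt1, Col3a1 and Zc3h13, with r from 0.93 to 0.81; Tmem132e was first both with and without control replicate 2 (r = 0.93 in each), and 2 of the 8 were also among the 8 nearest without it. Nearest to Nr4a3 were Grhl1, Ak4, Cpne6, Kit, Dock4, Pxdc1, Ptpre and Nr3c2, with r from 0.97 to 0.96. Nr3c2 encodes the mineralocorticoid receptor, a nuclear receptor of the stress hormone corticosterone. Over the other 17 libraries these 8 had r of 0.84 to 0.92, Ak4, an adenylate kinase gene, was first, and 3 of the 8 were still among the 8 nearest. The lists of the 8 nearest genes of the 3 members had no gene in common.

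The same measure was taken for 40 other immediate early genes. Their median r with Nr4a1 was 0.59, and 33 of 40 were positive, against a median of -0.05 and 7685 of 16737 positive over all genes tested. Egr1, a zinc-finger transcription factor of active neurons, had r = 0.88 with Nr4a1, Junb 0.85, Npas4 0.78 and Fos 0.72. Bdnf, which encodes a neurotrophin, had -0.43. For Nr4a2 the median was 0.01 and for Nr4a3 -0.23, with 21 and 13 of 40 positive. Over all genes tested the medians for these 2 members were 0.03 and -0.03, with 8862 and 7949 of 16737 positive. The contrast between the members was smaller without control replicate 2, which held the highest Fos (48.7 CPM), Arc (517 CPM), Egr1 (503 CPM) and Npas4 (20.1 CPM) of all libraries together with the lowest Nr4a2 and Nr4a3. Without it the medians were 0.57, 0.30 and 0.29, and 34, 30 and 29 of 40 were positive. Over all genes tested they were then -0.05, 0.04 and -0.06, with 7882, 8981 and 7647 of 16737 positive. Over those 17 libraries Egr1 had r of 0.81 with Nr4a1, 0.53 with Nr4a2 and 0.58 with Nr4a3.

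The immediate early genes as a group had mostly lower values in both comparisons with controls, as did Nr4a1. Between CSDS mice and controls 7 of 40 were lower and 0 higher at an unadjusted p under 0.05 (edgeR; 1.68% of all genes were lower and 1.83% higher), with a median log2 fold change of -0.21 against 0.00 over all genes. Leaving out control replicate 2, only 2 of 40 were lower (0.968% of all genes) and the median was -0.02. Between exercised mice and controls 24 of 40 were lower and 0 higher (4.39% of all genes were lower), with a median of -0.49 against 0.01, and 21 were lower (4.3% of all genes) with a median of -0.35 without that library. Between exercised and unexercised CSDS mice 5 of 40 were lower and 0 higher, where 7.46% of all genes were lower, with a median of -0.25; 12 were lower (8.64% of all genes) without that library. With the GC trend removed, the medians were -0.26 for CSDS against control, -0.11 between the CSDS groups and -0.34 for exercised against control. At an unadjusted p under 0.05, 11, 4 and 19 of 40 were then lower and 0 higher (edgeR). Among the 16738 genes tested, 692, 998 and 1245 then passed in either direction. Those on the lower side were not counted apart, so the counts of 40 have no matching share. After adjustment edgeR called 0 of 40 in each comparison. For CSDS against control DESeq2 and limma voom called 0 of 40. Between the CSDS groups DESeq2 called 1 lower and limma voom 19 lower, against 1.01% and 17.9% of all genes called lower by each. For exercised mice against controls they called 5 and 4 lower, against 0.168% and 0.329% of all genes.

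Fos encodes the AP-1 subunit most used as an activity marker. Its lowest, median and highest levels were 9.15, 15.0 and 48.7 CPM in controls, 2.96, 8.80 and 12.8 CPM in CSDS mice and 4.86, 6.45 and 9.03 CPM in exercised mice. Every exercised mouse thus lay below every control, while CSDS mice and controls overlapped; the share of genes without overlap in that comparison was 0.562%. The highest control level was that of control replicate 2, and the other 5 controls lay between 9.15 and 20.6 CPM. All fold changes given next, for Fos and other genes, are from the fit that includes that library. The log2 fold change of Fos was -1.59 ± 0.37 for exercised mice against controls (edgeR, adjusted p = 0.146) and -1.19 ± 0.36 for CSDS mice against controls (adjusted p = 0.993). Arl4d, a small GTPase gene, had the smallest p of the list in both comparisons with controls, with log2 fold changes of -0.96 ± 0.24 and -1.14 ± 0.24. Egr2 had -2.34 ± 0.50 between exercised mice and controls, from 5.57 to 1.09 CPM on average, and Junb -0.97 ± 0.22. Between the CSDS groups the smallest p belonged to Jund, with -0.74 ± 0.17 (edgeR), followed by Klf2 with -0.92 ± 0.29. None of these passed the adjusted threshold in edgeR. Bdnf had a positive log2 fold change of 0.29 ± 0.15 between exercised mice and controls in edgeR, which did not pass.

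**Figure D5:**
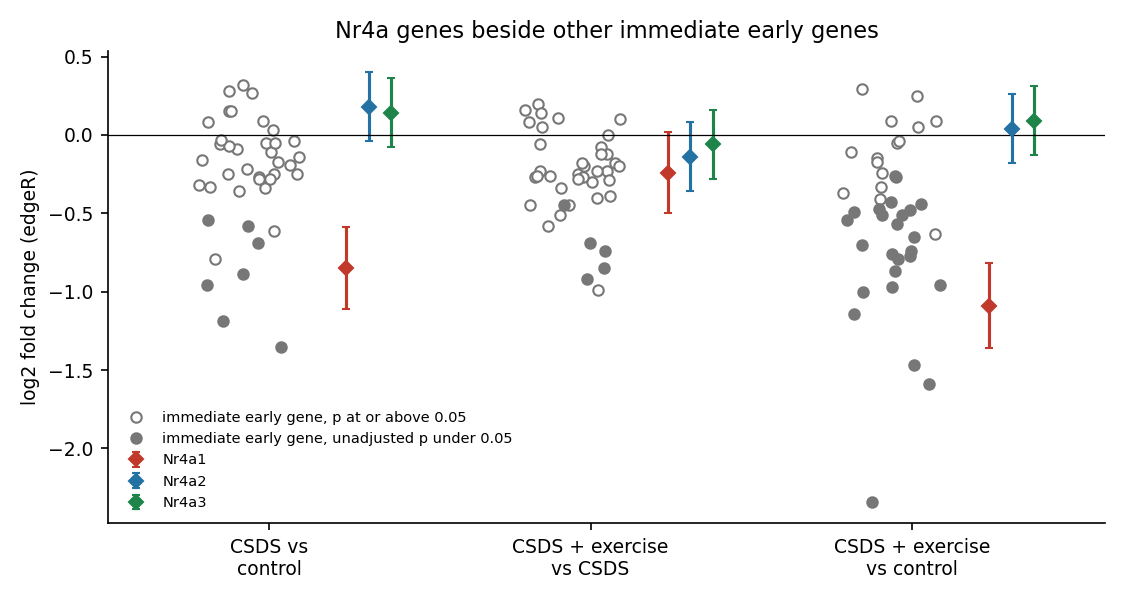
Log2 fold change from edgeR (y axis) of 40 other immediate early genes (grey, filled where the unadjusted p was under 0.05) and of the 3 Nr4a genes (coloured diamonds ± SE) in the 3 comparisons (x axis). Nr4a1, at -0.85 and -1.09 in the comparisons with controls, lies among the lower immediate early genes, and Nr4a2 and Nr4a3 lie above 0 in both.

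Upstream of the family, 23 genes of the signalling that induces it (CREB, MEF2, their kinases, coactivators and repressors) were examined. Between CSDS mice and controls 0 of 23 passed at an unadjusted p under 0.05 in edgeR or DESeq2 (5 higher in limma voom), and the median log2 fold change was 0.01. Between exercised and unexercised CSDS mice 3 of 23 were higher and 2 lower, where 15.6% of all genes passed in either direction. Creb1, the activity-dependent activator, had a log2 fold change of 0.38 ± 0.15, Mef2a 0.31 ± 0.10 and Atf1 0.25 ± 0.10, and Hdac5, a class IIa deacetylase that binds MEF2, had -0.37 ± 0.14. Between exercised mice and controls 2 of 23 were higher and 1 lower, again Mef2a, Creb1 and Hdac5, where 11.2% of all genes passed. After adjustment edgeR and DESeq2 called 0 of the 23 in each comparison, while limma voom called 4 higher and 8 lower between the CSDS groups, where it called 33.3% of all genes. With the GC trend removed 0 of 23 passed between the CSDS groups at an unadjusted p under 0.05, against 998 of the 16738 genes tested (edgeR).

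Among 13 genes for binding partners and corepressors, Rxra and Rxrb, retinoid X receptors that pair with Nr4a1 and Nr4a2, were lower in exercised than in CSDS mice at an unadjusted p under 0.05, and the other 11 did not pass; 7.46% of all genes were lower there. Rxra went from a mean of 57.2 to 44.1 CPM (log2 fold change -0.38 ± 0.10) and Rxrb from 75.9 to 60.6 CPM (-0.32 ± 0.13). With the GC trend removed, 0 of 13 passed there, against 998 of the 16738 genes tested (edgeR). After adjustment edgeR called 0 of 13 in each comparison; between the CSDS groups DESeq2 called 1 lower (1.35% of all genes called by it), and limma voom 1 higher and 3 lower (33.3% of all genes). Between CSDS mice and controls 0 of 13 passed at an unadjusted p under 0.05, and between exercised mice and controls 1 did, the corepressor gene Nrip1 with 0.23 ± 0.10, against 6.8% of all genes higher there.

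As candidate targets, 16 genes for chaperones and folding factors of the endoplasmic reticulum were examined, a group linked to the Nr4a family in hippocampal memory. Between exercised mice and controls 2 of 16 were lower at an unadjusted p under 0.05, Herpud1 with -0.25 ± 0.10 and Sdf2l1 with -0.45 ± 0.19, where 4.39% of all genes were lower, and 0 of 16 passed without control replicate 2. In the other two comparisons 0 of 16 passed. The group's medians were 0.00, -0.01 and 0.04, near those of all genes. Of 10 dopamine neuron genes known as targets of Nr4a2, 6 had enough counts to be tested. One of them, the retinaldehyde dehydrogenase gene Aldh1a1, was higher in exercised than in CSDS mice at an unadjusted p under 0.05 (log2 fold change 0.37 ± 0.15). That is 1 of 6, where 15.6% of all genes passed in either direction and 8.1% were higher. With the GC trend removed, 0 of 6 passed there, against 998 of the 16738 genes tested (edgeR). Th, which encodes tyrosine hydroxylase, had means of 1.05, 0.913 and 0.901 CPM in controls, CSDS and exercised mice. After adjustment edgeR and DESeq2 called 0 in both lists in each comparison. Between the CSDS groups limma voom called 2 chaperone genes higher and 1 lower, and 1 dopamine neuron gene higher, where it called 33.3% of all genes.

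Of the other nuclear receptors, 30 of 40 were tested. Between exercised and unexercised CSDS mice 3 of 30 were higher and 4 lower at an unadjusted p under 0.05 (15.6% of all genes passed), and the smallest p were those of Nr2f6 (-0.73 ± 0.19), Nr2f1 (-0.50 ± 0.14) and Nr1h2 (-0.40 ± 0.13). Rora, which was also on the list of thalamic markers, had 1.14 ± 0.43. With the GC trend removed, 2 of 30 were higher and 2 lower there, where 998 of the 16738 genes tested passed in either direction (edgeR). Between exercised mice and controls 4 were lower and 0 higher (4.39% and 6.8% of all genes). Between CSDS mice and controls 2 were lower (1.68% of all genes), Rorb and Esrrg; without control replicate 2 those 2 no longer passed. After adjustment edgeR called 0 of 30 in each comparison, DESeq2 2 lower and limma voom 3 higher and 8 lower, all between the CSDS groups, where these tools called 1.35% and 33.3% of all genes.

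The spread between mice of a group was wider for the Nr4a genes than for most genes. Pooled within groups, the SD of log2 CPM was 0.48 for Nr4a1, 0.42 for Nr4a2 and 0.47 for Nr4a3, against a median of 0.28 over all genes, and 80.2%, 72.9% and 78.6% of genes tested had a smaller one. Without control replicate 2 the SDs were 0.38, 0.38 and 0.25, and only 47.5% of genes had a smaller one than Nr4a3. Other activity genes lay on both sides of the members. With all libraries the SD was 0.75 for Arc, 0.68 for Fos, 0.57 for Egr1, 0.54 for Npas4 and 0.27 for Bdnf. Without control replicate 2 it was 0.61, 0.55, 0.33, 0.40 and 0.23, so that Egr1 was then narrower than Nr4a1 and Nr4a2. The lowest member count in any library was 473 reads, that of Nr4a2 in control replicate 2.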

How the data were processed

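Hippocampal RNA of 18 mice was sequenced as poly(A)-enriched, stranded libraries, per the labels' protocols. The authors deposited their estimated counts, per gene and mouse, in 1 unnormalized table. Fastp, HISAT2, RSEM and GRCm38 (mm10) are named in the submitters' processing notes; the sources used here do not give versions, annotation release or strand setting. Not whole were 22.7% of nonzero values; all were rounded to integers. Symbols matched 51884 of 57180 identifiers. Total counts were 18911080 to 24136591 per library.

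Genes were filtered with filterByExpr (minimum count 10, minimum total 15), scaled by TMM and tested with the quasi-likelihood F test of edgeR 4.0.16 (R 4.3.3) over all 18 libraries with 1 term per group. P-values were adjusted by Benjamini-Hochberg over all 16738 genes tested, and adjusted p under 0.05 was called. Log2 CPM used a prior count of 2. Scripts were tested on simulated counts. The alternatives were DESeq2 1.42.0, limma voom (limma 3.58.1, quality weights), other scalings and filters, a block for replicate number, a fit of only the 2 groups compared, a GC correction and leaving out each library; the GC correction of differences and correlations, and the list counts without control replicate 2, were added after seeing the data. The GC correction smoothed each library's deviation on median transcript GC content (GENCODE M21; 98.1% of tested genes). Permutations used SciPy 1.17.1, with 100000 resamples within groups for correlations. Promoter sequences are from RefSeq.

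The members, gene lists and tests were chosen with earlier results of these data known. By the rule for names, the text names the 3 members, 10 fixed genes, up to 4 genes per list and comparison with the smallest p, and the 8 nearest genes of each member; Thra and Tbc1d22a were named outside it, after their values were seen. The p-values measure the spread between mice sampled once each.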

Additional observations from a re-analysis of the deposited data

Results flagged for a closer look

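Nr4a1 in control replicate 2 was at 153 CPM, apart from the other 5 controls at 47.5 to 75.6 CPM. The gap to the nearest of them was 0.734 of the whole range, above Dixon's 95% critical value for 6 samples. It was the one such library among 9 group-by-gene checks, and chance flags about 1 in 20 of such checks. The checks used CPM and were not run on log2 CPM, the scale of the correlations. On the log2 scale Nr4a1 was 7.26 in this library, against 5.57 to 6.24 in the other 5 controls. Nr4a3 was 4.73 in this library, against 6.05 to 6.72 in those controls. The same library had the highest summed neocortical markers (1873 CPM) and the lowest summed dentate (479 CPM) and choroid plexus (20.5 CPM) markers. The part of these markers in its Nr4a1 level was not tested.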

How the results depend on the processing

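The log2 fold change of Nr4a1 stayed below 0 in every setting run and every comparison. For CSDS against control it ran from -0.93 to -0.48 over the 9 alternative fits and from -0.96 to -0.54 with 1 library left out, and it was not called in any. For exercised mice against controls it ran from -1.11 to -0.85, called by DESeq2 (-1.09) and limma voom (-0.85), and from -1.31 to -0.77 with 1 library left out. Between the CSDS groups it ran from -0.37 to -0.08 and from -0.45 to -0.13 with 1 library left out. Nr4a2 and Nr4a3 had no stable direction in some comparisons. Nr4a2 was -0.19 in limma voom and -0.01 with the GC correction for exercised mice against controls, and -0.45 and called in limma voom between the CSDS groups. Nr4a3 was 0.04 with the GC correction between the CSDS groups. With 1 library left out, Nr4a2 ran from -0.11 to 0.16 for exercised against control. Nr4a3 then ran from -0.03 to 0.26 for CSDS against control, -0.13 to 0.04 between the CSDS groups and -0.09 to 0.20 for exercised against control. The causes were not tested.

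The counts of called genes depended on the tool. For CSDS against control DESeq2 called 1. Between the CSDS groups DESeq2 called 164, limma voom 5567, no filter 2, and only the groups compared and the GC correction 1 each, with 0 to 625 when 1 library was left out. For exercised against control, 3 in edgeR became 109 in DESeq2 and 183 in limma voom, and 0 with no filter, with a filter of 1 CPM in 6 libraries, with only the groups compared and with the GC correction; leaving out 1 library gave 0 to 13. With the replicate number as a block 0 genes were called for exercised against control, and Nr4a1 was at -1.01. Same-numbered mice did not deviate together (correlations of -0.465 to 0.255, and 0 of 18 libraries correlated best with their own number). These deviations also carry the tissue content of each library, so they cannot exclude a pairing of the mice by number.

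With 1 library left out, Nr4a1 minus Nr4a2 ran from -1.09 to -0.59 for CSDS against control, from -0.27 to 0.02 between the CSDS groups and from -1.23 to -0.73 for exercised against control. Nr4a1 minus Nr4a3 then ran from -1.20 to -0.54 and from -1.38 to -0.72 in the comparisons with controls. Nr4a2 minus Nr4a3 ran from -0.17 to 0.05, -0.19 to 0.07 and -0.28 to 0.01. With the GC correction Nr4a1 minus Nr4a2 was 0.08 between the CSDS groups and -0.94 for exercised against control, where its adjusted p was 0.0536 by exact permutation. Correlations with 1 library left out ran from -0.31 to 0.30 (Nr4a1 and Nr4a2), from -0.48 to 0.64 (Nr4a1 and Nr4a3) and from 0.20 to 0.58 (Nr4a2 and Nr4a3). With the GC correction and no control replicate 2 they were 0.32 for Nr4a1 and Nr4a2 and 0.51 for Nr4a1 and Nr4a3 (adjusted permutation p = 0.246).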
